A study of Mus musculus with 2 samples.

Results

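The enzymes described here attach ubiquitin and its relatives to proteins or take ubiquitin off again. They were chosen by gene symbol alone: names that start with Uba (activating enzymes), Ube2 (conjugating enzymes), Usp followed by a number, or Uchl (deubiquitinases), without any Y-linked copy. The rule found 98 of the 55536 annotated genes, of which 95 were protein-coding. They comprised 6 activating enzymes (E1), 38 genes named as conjugating enzymes (E2), 47 ubiquitin-specific proteases (USP) and 4 ubiquitin C-terminal hydrolases (UCH). The remaining 3 carry such a name but are something else, among them Ube2cbp, which encodes an E3-type protein that binds E2 enzymes, and Ube2uos, an antisense RNA. Of the E2-named genes, Ube2nl and Ube2d4 are annotated as processed pseudogenes. Hippocampal tissue (the label reads "layer of hippocampus") came from male mice, with no treatment labelled, of the F1 hybrid strain B6CASTF1/J aged 25 days, and its total RNA was sequenced. There was only this group, with biological replicates 1 and 2, so nothing was compared between conditions and no test between groups was made. The replicates are labelled as different tissue samples of the same donor, so that it is unclear whether they were separate animals, and their spread may be no more than technical. Libraries started from 300 ng of RNA to which synthetic ERCC transcripts were added, and they held 30635891 expected counts on genes in replicate 1 and 35713471 in replicate 2.

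Ubiquitin is a small protein that cells join to other proteins as a tag. An E1 enzyme activates it with ATP, an E2 enzyme takes it over on a catalytic cysteine, and an E3 ligase directs it to a substrate. Chains of ubiquitin send proteins to the proteasome or alter their traffic and signalling, and deubiquitinases remove or trim the tag. SUMO, NEDD8 and ISG15 are among the related modifiers with E1 and E2 enzymes of their own. In neurons this machinery is known for turning over synaptic proteins, and UCHL1 is among the abundant proteins of the brain.

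The chemistry that defines an E2 can be read in the coding sequence, which is shown here because it separates the active enzymes from the variants that share their name. The lines give the reference coding bases (GENCODE M21, GRCm38/mm10, coding strand, 5′ to 3′) from the codon of a conserved histidine to the catalytic cysteine, whose codon is in capitals. For Ube2v2, the line gives the stretch that a protein alignment set against that of Ube2n, with the codon placed opposite the cysteine in capitals.
Ube2d3, codons 75 to 85, chr3:135459999-135460031: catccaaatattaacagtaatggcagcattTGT
Ube2d1, codons 75 to 85, chr10:71258250-71258282: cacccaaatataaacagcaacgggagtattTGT
Ube2n, codons 77 to 87, chr10:95541403-95541435: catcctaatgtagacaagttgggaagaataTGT
Ube2v2, codons 88 to 102, chr16:15556529-15577044, across an exon junction: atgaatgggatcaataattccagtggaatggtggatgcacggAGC
All 3 E2 enzymes end the stretch with the same cysteine codon, and the aligned 45 bases of Ube2v2 contain no cysteine codon. The whole coding sequences of Ube2d3 and Ube2d1 were 77.3% identical, with 343 matching bases and 101 mismatches.

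Most of these genes were expressed. A gene was counted as detected at a mean of at least 1 TPM (transcripts-per-million, a level per transcript length). On that measure 85 of the 98 were detected, and among all 22028 protein-coding genes the share was 58.9%. More than 10 TPM was reached by 72 of them, which 36.8% of all protein-coding genes did. The 98 genes together summed to 3790 TPM in replicate 1 and 3915 TPM in replicate 2. Of their TPM, E2 genes held 39.3% ± 0.245, USP genes 31.8% ± 1.81, UCH genes 10.4% ± 0.835 and E1 genes 6.75% ± 0.165 (mean ± SD, n = 2). Bulk RNA does not tell apart fewer cells of a type and less RNA in each cell. All 16 markers of neurons, glia, microglia and endothelium in the list used were present, from 22.2 TPM for Cldn5 to 1554 TPM for Camk2a. The 4 markers of dividing cells lay between 0.245 and 1.34 TPM and the 4 interferon-induced genes between 0.065 and 0.59 TPM.

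**Figure D1:**
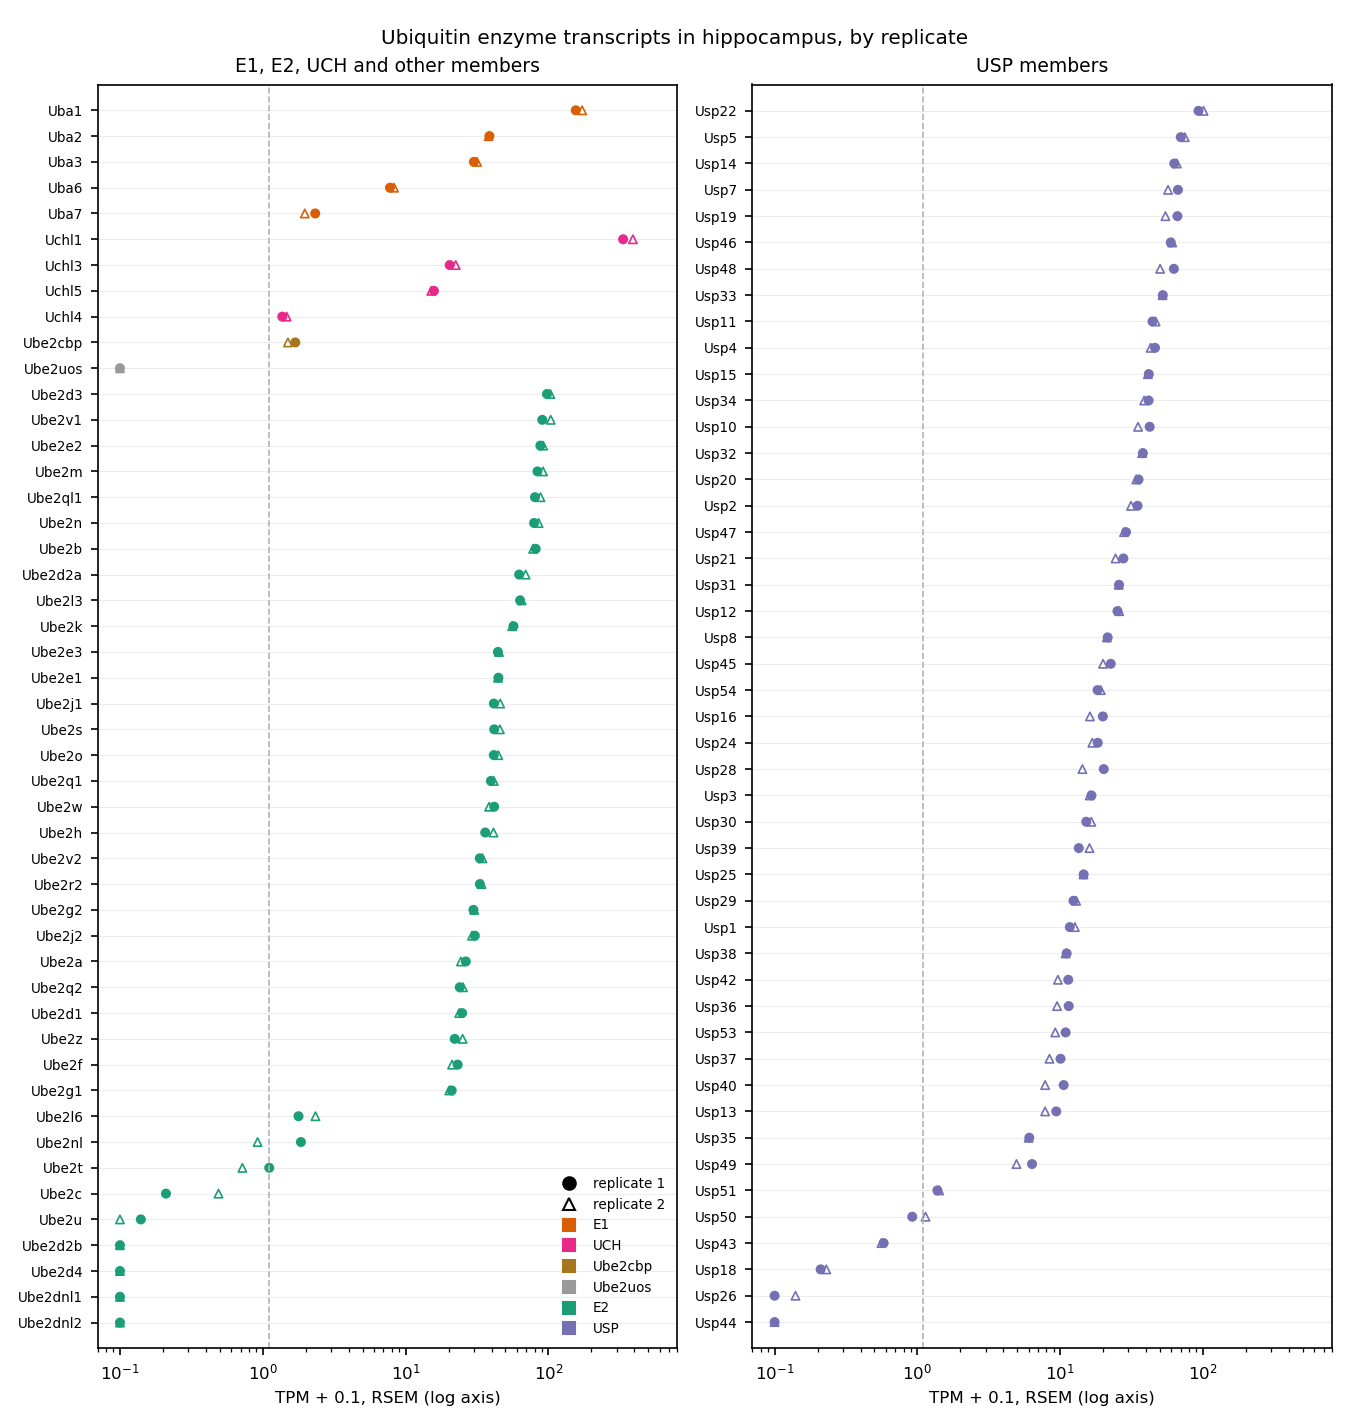
Levels in each replicate as RSEM TPM with 0.1 added on a log axis, with filled circles for replicate 1, open triangles for replicate 2 and a dashed line at 1 TPM. The plot draws 95 of the 98 members. Uchl1 stands above 300 TPM in both replicates, 29 E2 genes have means between 20.5 and 100.4 TPM, and the USP genes spread over a wider range below 101 TPM.

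Activating enzymes. All 6 E1 genes were detected, and each stood clear of the next: in no pair of neighbours in the order did the replicates overlap. Uba1 (chrX:20658326-20683179), which activates ubiquitin for most E2 enzymes, led with 155 TPM in replicate 1 and 172 TPM in replicate 2. Uba6, the other E1 of ubiquitin, had 7.68 and 8.20 TPM, so that within a library Uba1 was 20.6 ± 0.545 times Uba6 (mean ± SD of the ratio, n = 2). Uba2, the catalytic subunit of the SUMO E1, had 38.6 and 38.1 TPM. Uba3, its counterpart for NEDD8, had 29.99 and 31.5 TPM. Uba7, which activates the interferon-induced modifier ISG15, was lowest with 2.23 and 1.87 TPM from 66.5 and 49.1 expected counts.

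The partners of these E1 enzymes, taken from a list of 47 other pathway genes, can be set beside them on the same TPM scale. Sae1, which pairs with Uba2, averaged 40.5 ± 2.53 TPM in RSEM, close to the 38.3 ± 0.346 TPM of Uba2. In kallisto, Uba2 was the higher, with a mean of 75.8 TPM against 60.8 TPM for Sae1. Nae1, the partner of Uba3, averaged 18.5 ± 2.04 TPM in RSEM against 30.8 ± 1.1 TPM for Uba3. Of the 47 genes, 46 were detected and 37 exceeded 10 TPM. Among the highest were the ubiquitin genes Ubb (718 and 839 TPM) and Rps27a (176 and 196 TPM). The lowest were Isg15 (0.07 and 0.06 TPM), Tnfaip3 (1.87 and 2.35 TPM), an inhibitor of inflammatory signalling that edits ubiquitin, and the deubiquitinase Otud1 (5.25 and 5.62 TPM). Usp9x, a relative of the USP genes that the naming rule leaves out, had 96.2 and 96.4 TPM.

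Conjugating enzymes. Of the 38 E2-named genes, 31 were detected, and 29 of these lay between 20.5 and 100.4 TPM. The next below was Ube2l6 at 1.96 ± 0.396 TPM, so no E2 gene had a mean between these levels. The median of all 38 was 36.2 TPM and that of the 31 detected was 42.9 TPM, beside 15.1 TPM for all detected protein-coding genes. The highest in RSEM was Ube2d3 (chr3:135438149-135468198), a broadly acting E2 that works with many E3 ligases, with 97.7 and 103 TPM. Its range overlapped that of Ube2v1, given below. In kallisto, the other quantification described below, Ube2v1 averaged 278 TPM and Ube2n 194 TPM, both above the 154 TPM of Ube2d3.

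Other modifiers can be read with their enzymes as short pathways. For NEDD8, the E2 gene Ube2m had 83.8 and 91.6 TPM and the second one, Ube2f, 23.1 and 21.1 TPM, with Nedd8 itself at 142 ± 18 TPM. Ube2m was 3.99 ± 0.507 times Ube2f within a library. The ISG15 genes were all low. Isg15 had 1 expected count in each replicate. Its E1 gene Uba7 averaged 2.05 ± 0.255 TPM, its E2 gene Ube2l6 had 1.68 and 2.24 TPM, and Usp18, which removes ISG15, had 0.11 and 0.13 TPM from 4 and 3 counts.

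Chains linked through lysine 63 of ubiquitin serve signalling and endocytosis. They are built by Ube2n together with Ube2v1 or Ube2v2, variants that lack the catalytic cysteine. Ube2n had 79.3 and 85.3 TPM, Ube2v1 90.5 and 104 TPM, and Ube2v2 33.0 and 34.4 TPM. Ube2v1 was 2.88 ± 0.192 times Ube2v2 within a library, and Ube2n was 0.849 ± 0.0384 times Ube2v1. Of the 2721 exon bases of Ube2v1, 1673 or 61.5% also belong to Gm20431, a protein-coding gene on the same strand, which was given 21.7 and 23.2 TPM in RSEM.

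In the UBE2D family, 3 of 7 genes were detected and 4 had no count in either library. Beside Ube2d3, Ube2d2a had 62.3 and 69.2 TPM and Ube2d1 24.8 and 23.6 TPM. The 4 genes at 0, Ube2d2b, Ube2dnl1, Ube2dnl2 and the pseudogene Ube2d4, are copies of the family, and a count of 0 allows up to 3 counts in a library of this depth. The coding sequences of Ube2d2a and Ube2d2b were 92.6% identical, with 411 matching bases, yet none of the 1579 windows of 100 bases along the Ube2d2b transcript occurred in a Ube2d2a transcript. The UBE2E genes, which also work with many E3 ligases, were all expressed. Ube2e2 had 87.8 and 91.8 TPM, and the ranges of Ube2e3 (44.2 and 45.01 TPM) and Ube2e1 (44.6 and 44.3 TPM) overlapped in RSEM. In kallisto, Ube2e3 (115 and 112 TPM) stood above Ube2e1 (70.6 and 67.7 TPM).

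Ube2b and Ube2a are the mammalian counterparts of yeast RAD6 and ubiquitinate histone H2B. Ube2b had 81.4 and 78.1 TPM and was 3.15 ± 0.0851 times Ube2a, which lies on the X chromosome. Among the large E2 enzymes, Ube2ql1 had 80.5 and 87.9 TPM and Ube2o, a combined E2 and E3 enzyme, 41.4 and 44.5 TPM. Ube2z, which receives ubiquitin from Uba6, had 22.0 and 25.0 TPM and so was above Uba6. Ube2l3, which serves HECT and RBR ligases such as parkin, had 63.3 and 64.9 TPM. The 5 E2 enzymes of ER-associated degradation, the route that removes misfolded proteins from the endoplasmic reticulum, lay between 20.5 and 56.3 TPM, with Ube2k highest and Ube2g1 (20.9 and 20.1 TPM) lowest.

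Among the E2 enzymes of cell division the levels split. Ube2c and Ube2s work in turn with the anaphase-promoting complex, and Ube2t acts in DNA crosslink repair. Ube2c had 0.11 and 0.39 TPM from 2 and 9 counts, and Ube2t had 1.01 and 0.62 TPM from 14 and 16 counts. Ube2s had 41.6 and 45.7 TPM. The means of Ube2c and Ube2t lay within the range of the means of the dividing-cell markers, although Ube2c in replicate 1 was below it, and Ube2s was above it in both replicates. Ube2u had 1 count in replicate 1 and 0 counts in replicate 2.

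Ubiquitin C-terminal hydrolases. Uchl1 (chr5:66676091-66687234), which hydrolyses small ubiquitin adducts and is a neuronal marker, had 334 TPM in replicate 1 and 391 TPM in replicate 2. It was 17.0 ± 0.72 times Uchl3, a relative that acts on ubiquitin and NEDD8, with 20.3 and 22.4 TPM. Uchl5, which is carried by the proteasome and by the INO80 chromatin remodeller, had 15.7 and 15.0 TPM. Uchl4, a single-transcript gene that resembles Uchl3, had 1.27 and 1.37 TPM from 28.0 and 35.7 expected counts. No neighbours in this order overlapped in RSEM. In the kallisto quantification, Uchl5 (52.4 and 46.2 TPM) stood above Uchl3 (32.1 and 31.8 TPM).

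Uchl3 and Uchl4 were 97.4% identical over their aligned coding bases, with 18 mismatches and 9 bases present only in Uchl4, so their reads can be hard to assign. The stretch around the inserted bases is printed with every differing base in capitals.
Uchl3, coding bases 258 to 320, chr14:101666586-101666648: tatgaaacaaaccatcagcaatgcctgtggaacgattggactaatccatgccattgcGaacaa
Uchl4, coding bases 258 to 329, chr9:64235496-64235567: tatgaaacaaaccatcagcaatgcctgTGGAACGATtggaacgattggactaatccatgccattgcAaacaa
The inserted bases repeat the 9 that follow them. Of the 1063 windows of 100 bases along the Uchl4 transcript, 121 (11.4%) also occur in a Uchl3 transcript. The posterior SD of the deposited RSEM count, which measures how uncertain the sharing of reads is, came to 5.13% of the count for Uchl4 and to 0.371% for Uchl3.

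Ubiquitin-specific proteases. The 47 USP genes were more graded than the E2 genes. Of these, 42 were detected, 35 exceeded 10 TPM, 22 exceeded 20 TPM and none exceeded 100 TPM. The median over all 47 was 17.9 TPM and that of the 42 detected was 21.2 TPM. On the log2(TPM + 0.1) scale the median of the E2 genes was 5.18 and that of the USP genes 4.17, a difference of 1.01. USP genes were longer, with a median length of 3481 bases against 1753 bases for E2 genes (each gene as the mean of its transcripts weighted by level, as RSEM gives it), and in expected counts scaled to the library total, which ignore length, the difference was 0.15. No gene is tested by this, and E2 and USP genes are members of 2 families, not replicates.

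The highest USP gene was Usp22 (chr11:61151785-61175055), which removes ubiquitin from histones within the SAGA complex, with 92.8 and 101 TPM. Usp5, which takes apart unanchored ubiquitin chains, had 69.8 and 74.5 TPM and was 8.57 ± 1.49 times its relative Usp13. Usp14, which docks on the proteasome, had 62.8 and 65.5 TPM. Usp7, which acts on Mdm2 and p53, had 66.6 and 56.8 TPM, and Usp19, an isoform of which is anchored in the endoplasmic reticulum, had 66.1 and 54.5 TPM. The ranges of Usp14, Usp7 and Usp19 overlapped. Usp46, which is known to deubiquitinate AMPA-type glutamate receptors, had 59.3 and 60.8 TPM. It was 2.36 ± 0.00584 times its close relative Usp12, and their shared cofactors Wdr48 and Wdr20 averaged 27.2 ± 0.191 and 17.8 ± 0.0566 TPM.

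The next of the 12 highest USP genes lay between 38.6 and 62.4 TPM in each replicate. Usp48, which acts on histone H2A, had 62.4 and 49.96 TPM, and Usp33, known from receptor traffic, had 52.2 and 52.0 TPM. The related genes Usp11, Usp4 and Usp15 had 44.2 and 46.5, 46.0 and 42.9, and 41.6 and 41.0 TPM, and the ranges of Usp11 and Usp4 overlapped. Usp34, a large protease of Wnt signalling, had 41.5 and 38.6 TPM. Usp30, which opposes the marking of mitochondria for degradation, had 15.1 and 16.4 TPM. Usp29 lies in an imprinted domain and is expressed from the paternal copy in mice; it had 12.3 and 12.8 TPM, which these tables do not split by parent.

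At the low end, the detected genes were Usp40 (10.5 and 7.74 TPM), Usp13 (9.28 and 7.74 TPM), Usp35 (5.97 and 5.91 TPM), Usp49 (6.25 and 4.84 TPM) and Usp51 (1.28 and 1.32 TPM). For Usp49, 51.2% of the exon bases also belong to Gm20517 on the same strand, given 2.23 and 2.26 TPM. Below 1 TPM lay 5 USP genes. Usp50 had 0.82 and 1.04 TPM and Usp43 0.48 and 0.46 TPM. Usp26, an X-linked gene known from testis, had 0 counts in replicate 1 and 4 counts in replicate 2. Usp44, known from the mitotic checkpoint, had none in either replicate.

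The distance between replicates could be judged for the 79 members whose mean expected count was 100 or more. The log2 ratio of replicate 1 over replicate 2, scaled by TMM in edgeR, had a median of -0.05 and ran from -0.27 for Uchl1 to 0.34 for Usp16. None of the 79 was more than 1.5-fold apart, and neither TMM, DESeq2, spike-in nor deposited TPM scaling placed one beyond it. Among all 12719 genes at that depth the share was 2.31%. The widest gap, of Usp16, came to 1.26-fold. The median absolute log2 ratio was 0.09 for the members and 0.11 for all genes. Of the 79, 23 were higher in replicate 1, as were 39.3% of all genes. With spike-in scaling, which moved the median of all genes to 0.17, 76 of the 79 were higher in replicate 1, so the direction depends on the scaling.

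The ratios of the families were not tested against each other. The E2 genes had a median log2 ratio of -0.11, with 4 of 29 higher in replicate 1, from -0.23 for Ube2z to 0.06 for Ube2f. The USP genes had a median of -0.03, with 18 of 41 higher in replicate 1. The 4 highest ratios were all of USP genes, and TPM differed likewise: Usp16 had 19.8 and 16.1 TPM, Usp40 10.5 and 7.74 TPM, Usp28, which acts in DNA damage signalling, 20.1 and 14.2 TPM, and Usp48 the levels given above. In these genes, transcripts annotated as retaining an intron took 50.4% of the TPM of Usp16, 41.9% of Usp40, 50% of Usp28 and none of Usp48. In Uchl1, which had the lowest ratio of the members, they took 74.0%. Over the detected genes the median of that share was 7.93% for USP genes and 2.39% for E2 genes, and 2.56% for all detected protein-coding genes. The 20 genes annotated as lying within introns had a median log2 ratio of 0.80, against -0.04 for 11905 protein-coding genes. Over the 79 members, the rank correlation (Spearman rho) of the log2 ratio was 0.277 with the retained-intron share and 0.203 with gene length. It was not computed for the USP genes alone, and the part of intron reads in their ratios was not tested.

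**Figure D2:**
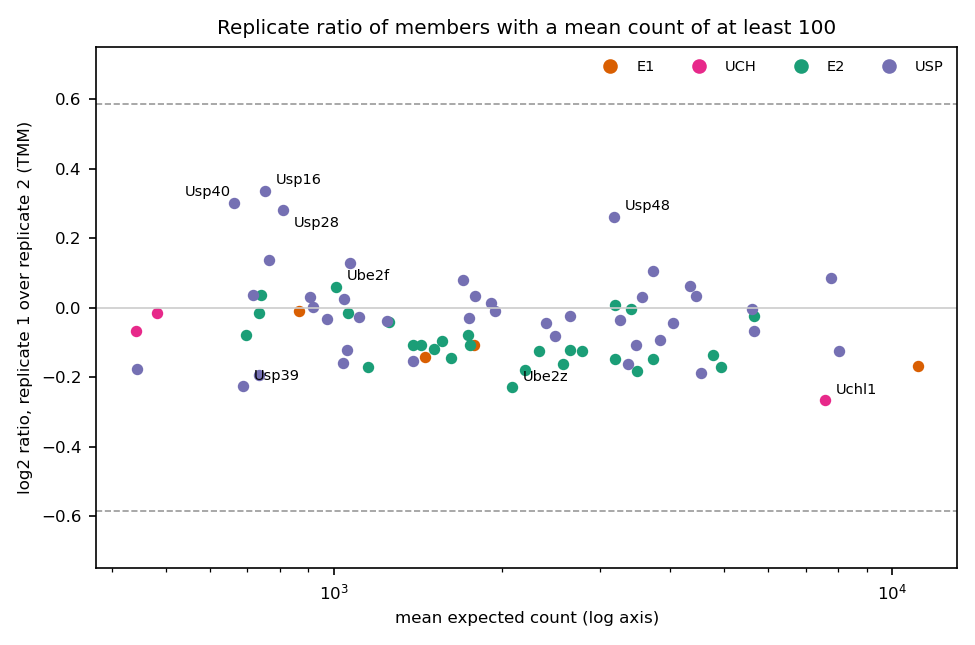
Log2 ratio of replicate 1 over replicate 2 (TMM scaling) against the mean expected count (log axis) for the 79 members with a mean count of at least 100, coloured by family, of which 76 are drawn, with dashed lines at 1.5-fold. All points drawn lie within the lines, with Usp16, Usp40, Usp28 and Usp48 highest and Uchl1 lowest.

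The libraries were quantified by the authors both with RSEM, from an alignment to transcripts, and with kallisto, directly from reads. RSEM values are used above, and kallisto TPM was higher by 1.57-fold at the median protein-coding gene, a shift removed before comparison. Of the 87 members at 1 TPM or more in either table, 2 then differed by more than 2-fold, while among all 18090 such genes the share was 12.9%. Usp50 had 0.82 and 1.04 TPM in RSEM, against 17.3 and 18.1 TPM in kallisto. Of the kallisto level, 91.8% was given to Usp50-203, a transcript annotated for nonsense-mediated decay, which RSEM listed at 0 in both replicates. Usp50 shares 204 exon bases with the processed pseudogene Gm10774 on the same strand, which had 9.90 and 18.3 TPM in RSEM and was listed at 0 in kallisto. Uchl5 had 15.7 and 15.0 TPM in RSEM, against 52.4 and 46.2 TPM in kallisto, a centred log2 difference of -1.02. Just inside the 2-fold limit were Ube2v2 with -0.92 and Ube2v1 with -0.86.

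**Figure D3:**
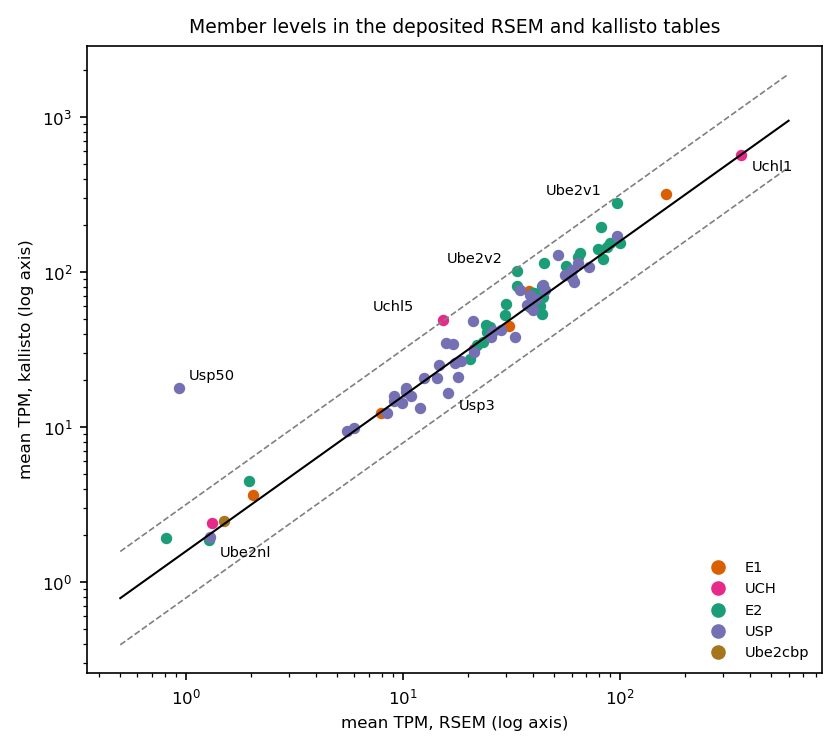
Mean TPM of 84 members in RSEM (x) and kallisto (y), both on log axes, with the median shift of protein-coding genes as a solid line and 2-fold limits around it as dashed lines. Usp50 stands far above the upper line and Uchl5 just above it, and the other points lie between the lines.

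The tables differed more on which transcript of a gene carried the reads. Of the 80 detected members with several annotated transcripts, 56 had a leading transcript with at least 50% of the gene's TPM, beside 68.9% of all such protein-coding genes. In RSEM, replicates 1 and 2 had the same leading transcript for 73 of the 80, while RSEM and kallisto had the same one for 50. The same counts over all genes are not given, and whether the members differ from other genes in this was not tested. Protein-coding transcripts held a median of 88.0% of a detected member's TPM, and 89.4% over all detected protein-coding genes. The share was 93.4% for E2 genes and 81.1% for USP genes. In RSEM, the leader was not protein-coding in 5 of the 80 (Uchl1, Ube2n, Usp7, Usp3 and Uba7), beside 7.68% of all such protein-coding genes.

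Uchl1 showed a wide disagreement. RSEM gave 234 and 284 TPM to Uchl1-202, annotated with a retained intron, and 90.3 and 97.8 TPM to the coding Uchl1-201, so that Uchl1-202 led with 71.5%. In kallisto Uchl1-201 took 519 and 602 TPM, or 98.2%, and Uchl1-202 was listed at 0 in both replicates. The level of the gene as a whole was close in both tables, with a centred log2 difference of -0.00017. The transcripts share 928 bases. Uchl1-202 has 980 bases in 7 exons and starts inside an intron, 52 bases before the third exon of Uchl1-201, which has 1177 bases in 9 exons. The lines print where they part, with the bases not shared in capitals and the first 30 bases of the shared exon in lower case.
Uchl1-202, chr5:66676892-66676973: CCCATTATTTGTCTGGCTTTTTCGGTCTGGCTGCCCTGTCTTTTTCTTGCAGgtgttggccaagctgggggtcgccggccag
Uchl1-201, coding bases, chr5:66676290-66676973: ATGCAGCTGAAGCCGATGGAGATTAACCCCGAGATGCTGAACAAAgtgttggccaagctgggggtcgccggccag
The capitals of Uchl1-202 are intron and those of Uchl1-201 are the 45 coding bases of its first exons, with the start codon. Of the 881 windows of 100 bases along Uchl1-202, 829 (94.1%) also occur in Uchl1-201, while Uchl1-201 has 244 bases in its first exons that Uchl1-202 lacks. An antisense gene, Uchl1os, overlaps 295 exon bases of Uchl1 and had 0.36 and 0.30 TPM.

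Other members changed their leading transcript between the tables. Ube2n-204, annotated as a processed transcript without a reading frame, led in RSEM with 31.4 and 31.3 TPM (38.0%), ahead of the coding Ube2n-201 with 28.6 and 31.8 TPM, and the order of these transcripts turned between the replicates. In kallisto another processed transcript, Ube2n-206, led with 34.3%. Usp7-206, annotated for nonsense-mediated decay, took 30.6% of Usp7 in RSEM and 0.96% in kallisto, where the coding Usp7-207 took 62.2%. Usp3-208 led Usp3 in RSEM with 4.22 and 5.35 TPM and was listed at 0 in kallisto. Ube2l3-201 held 68.2% of Ube2l3 in RSEM and was listed at 0 in kallisto, and Usp21-201 held 61.1% of Usp21 against 0.123%.

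For Uba7 the tables gave similar shares by transcript class, from only 66.5 and 49.1 expected counts in RSEM. Its protein-coding transcripts held none of its TPM in RSEM and none in kallisto. Transcripts with a retained intron held 81.3% in RSEM and 77.8% in kallisto. The leading transcript differed, with Uba7-212 at 23.8% in RSEM and Uba7-213 at 44.0% in kallisto. In kallisto the leader was not protein-coding for 12 of the 80 genes, among them Ube2v1, Ube2v2, Ube2k, Ube2r2 and Uchl5. The share of 7.68% over all such protein-coding genes is from RSEM, and no share from kallisto is given to set beside this count. For Ube2v1, kallisto gave 147 and 171 TPM to the processed transcript Ube2v1-203, against 5.75 and 1.97 TPM in RSEM. The gene levels of Ube2v1 and Ube2v2 were also among the most different between the tables, as given above.

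**Figure D4:**
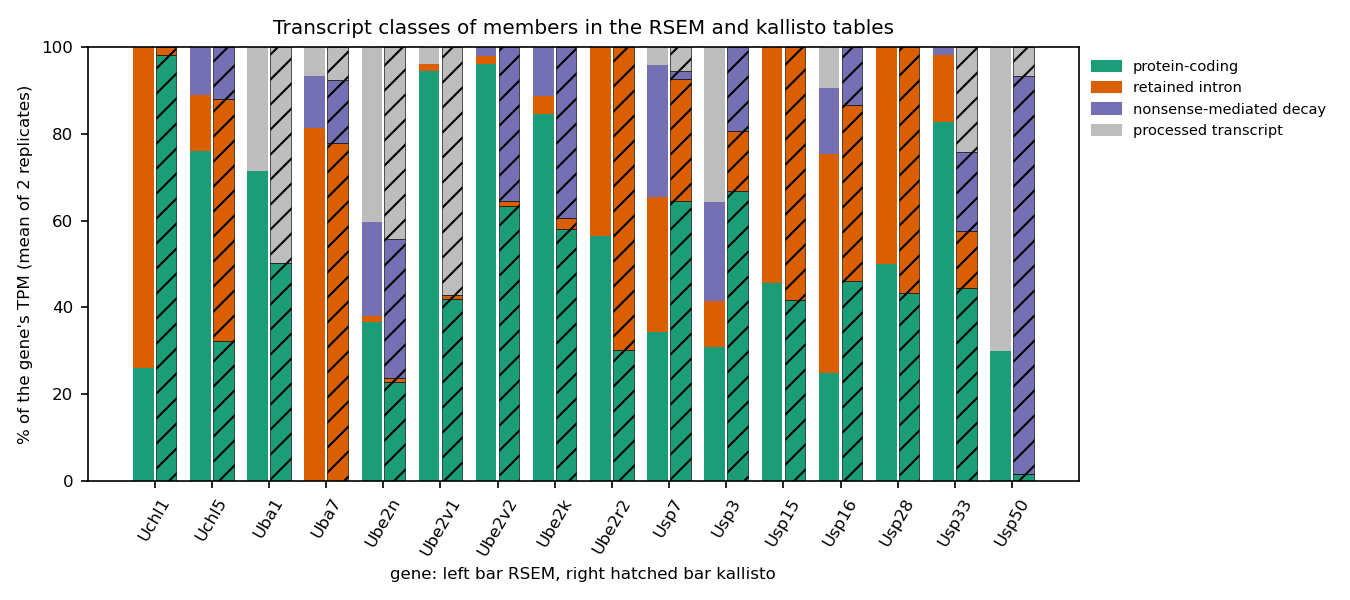
Share of each gene's TPM by annotated transcript class for 16 members, as the mean of 2 replicates in percent, with RSEM as the left bar and kallisto as the right, hatched bar. Uchl1 is mostly retained intron in RSEM (74.0%) and mostly protein-coding in kallisto (98.2%), and Uba7 has no protein-coding part in either.

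At gene level the posterior SD, which measures how uncertain the assignment of reads is and not how many are shared, was over 1% of the count for 8 members and over 5% for 3: Ube2nl (14.4%), Usp50 (13.8%) and Uchl4 (5.13%). Others among the 8 were Ube2v1 (2.87%), Usp49 (2.46%), Uba7 (1.59%) and Ube2v2 (1.11%). Ube2nl is a processed copy of Ube2n, identical to its coding sequence at 442 of 456 aligned bases. It had 1.75 and 0.82 TPM from 13.0 and 7.19 expected counts, and 15.4% of its windows of 100 bases occur in Ube2n transcripts. Exons of 26 members overlap those of a gene on the other strand. Whether reads were counted by strand is not given in the sources used here, so reads of such pairs may not be told apart. The widest such overlaps were of Ube2l3 with Ydjc (28.6% of the exon bases of Ube2l3) and of Usp14 with Thoc1 (26.0%). Ydjc had 11.8 and 12.8 TPM and Thoc1 26.1 and 20.96 TPM. The opposite-strand partner with the highest level was Rpl28 (216 and 204 TPM), which shares 3.56% of the exon bases of Ube2s. For the posterior SD and for these overlaps, shares over all genes are not given, so the counts of members have no background to be read against.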

How the data were processed

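Total RNA was profiled in 2 libraries of 1 group. Per the deposited text notes, all tables refer to mm10 and GENCODE release M21. The deposited expected count per gene or transcript shares out reads that match several features, per the file headers (RSEM columns, and estimated counts of kallisto). The deposited TPM divides it by an effective length and scales each library to the same total, spike-ins included. The deposited posterior SD of the count, treated as a score, was divided by the count. The aligner, program versions and any strand setting: not given in the sources used here.

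Rows that name no gene stayed out of library sizes: spike-ins held 112913 and 148536 counts, and 26248 numbered rows 6 and 2. Symbols came from the kallisto table and were joined by gene identifier. Levels are given per replicate or as mean ± SD (n = 2). A count of 0 allows 3 counts, for counting error only. Replicate ratios used counts rounded to whole numbers, TMM factors and a prior count of 0.5 in edgeR 4.0.16 (R 4.3.3), with DESeq2 1.42.0 size factors as an alternative, and the step was tested on simulated data. Table differences are log2 of RSEM over kallisto TPM, each with 0.1 added, centred on protein-coding genes at 1 TPM or more. Sequences came from the GENCODE M21 transcripts, cut by its annotation and aligned with Biopython 1.88. Python 3.11.15, pandas 2.3.3, numpy 2.4.6 and matplotlib 3.10.9 did the rest.

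The members, gene lists and thresholds were chosen with earlier results of these data known. Values are given for E1 and UCH genes, the 10 highest and 5 lowest detected E2 genes, the 12 highest and 5 lowest detected USP genes, those under 1 TPM, over a threshold, or with the 8 largest posterior SDs. Some genes that this takes are not reported here. Other members were named for their role or after their values were seen. Alternatives covered kallisto, TPM and count minimums, posterior mean TPM, the pseudocount, DESeq2, spike-in and TPM scaling, transcript thresholds, centring, and leaving out each replicate.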

Additional observations from a re-analysis of the deposited data

How the results depend on the processing

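The counts of members at 1 TPM or more (80 to 87) and above 10 TPM (70 to 78) stayed within 1.5 times the values given under every alternative run. On the log2 scale the E2 median was 5.94 in kallisto, 5.43 over detected genes only and between 5.11 and 5.19 with a replicate left out. The USP median was 4.93 in kallisto, 4.41 over detected genes only and between 4.07 and 4.31 with a replicate left out. The difference of these medians was 0.15 in expected counts scaled to the library total, and between 0.8 and 1.12 with a replicate left out. The median replicate ratio changed sign on deposited TPM (0.0068) and with spike-in scaling (0.16). With a count minimum of 10, 2 members (Ube2nl and Uba7) were over 1.5-fold apart, and with no minimum 5 were. A leading transcript of at least 75% was found in 25 members. The leader was not protein-coding in 12 members in kallisto, and in 4 to 6 with a replicate left out. The median protein-coding share was 82.1% in kallisto and between 85.7% and 88.7% with a replicate left out. Without centring, 15 members differed by more than 2-fold between RSEM and kallisto. Shares over all genes are given above for the main settings only, so these counts under alternative settings have none beside them. No paired analysis was possible because there is 1 group. With 2 libraries of 1 group, no difference between members can be generalised beyond them, and transcript shares rest on reads that several transcripts hold in common.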
